A study of Mus musculus with 30 samples.

Results

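The genes described here encode the machinery that takes a secreted protein into the endoplasmic reticulum (ER) and on to the Golgi: the signal recognition particle and its receptor, the Sec61 translocon with its partners, signal peptidase, the COPII and COPI vesicle coats, the cargo receptors that load those vesicles, and the tethers and a SNARE that dock them. The members were taken from a list of 56 gene symbols, each represented by the probe set of highest mean that the platform annotation gives to that symbol alone. Of the 56, 54 had such a probe set and 53 passed the filter on dim probe sets, out of 12183 genes tested in all. Sec61g, the small subunit of the Sec61 channel, and Srp54a, the signal-sequence binding protein of the signal recognition particle, had no probe set of a single symbol, and Tmed2, a p24 cargo receptor, was measured below the filter, at group means between 6.02 and 6.38 on the log2 scale. Among the 53, 51 lay above the table's median intensity on all 30 arrays. The other two, Sec24d and Kdelr3, lay above it on 14 and 16 arrays, so they passed partly through the groups in which they were high.

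The study measured RNA from mouse splenic B cells (C57BL/6, carrying the B1-8i immunoglobulin allele) on 30 Affymetrix arrays in 10 groups of 3, and asked how wild-type and Irf4-mutant B cells respond to mitogens that drive plasma cell differentiation. The KO cells came from Irf4-/- mice that carry a doxycycline-inducible Irf4, and were taken at day 0 before culture and at days 1 and 3 of culture with CD40L, IL-2, IL-4 and IL-5, at a doxycycline dose of 0 (zero DOX), 16 (low DOX) or 100 ng/mL (high DOX). The WT cells came from Irf4+/+ mice, had no doxycycline, and were taken at days 0, 1 and 3 with the same stimulation. By the submitters' design text, each replicate came from 1 mouse, and of the 3 in a group 2 were run side by side and 1 separately. It does not name the separate one, nor whether cultures of different doses shared a mouse.

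A protein bound for secretion is recognised by its signal sequence as it leaves the ribosome, is delivered to the ER membrane by the signal recognition particle, crosses through the Sec61 channel and loses its signal sequence to signal peptidase. COPII coats then bud carriers from the ER towards the Golgi, and COPI coats return escaped ER proteins and cargo receptors. Plasma cells, the antibody-secreting form of a B cell, are a textbook case of a cell that enlarges this route.

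Values are log2(intensity + 16), where intensity is the deposited signal of a probe set, and differences are in log2 units. A gene is called higher or lower in a comparison where limma's moderated test, fitted to all 30 arrays, gave an adjusted p under 0.05 over the 12183 genes. Group means are given ± SD over 3 arrays and differences ± SE from the fit. A probe set's level was never set against that of another gene.

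The Irf4 probe sets were read first, as a check of the labels. The dimmer Irf4 set followed the doxycycline dose at day 3, with means of 7.50 ± 0.17 at zero, 13.01 ± 0.08 at low and 13.58 ± 0.07 at high DOX in KO cultures, against 7.32 ± 0.08 in WT cultures, so it was as low in WT as in KO cultures without doxycycline and is no check of the deletion. The other Irf4 set read 11.10 ± 0.29 in KO cultures with zero DOX and 10.82 ± 0.05 in WT cultures at day 3, and does not show the deletion either. The sources used here do not give the part of the gene that each set reads. On day 1, 2 arrays contradicted their labels by the set that followed the dose. The array labelled KO day 1 zero DOX replicate 2 read 10.77, where the other zero DOX arrays read 7.84 and 7.80, and the array labelled KO day 1 low DOX replicate 2 read 7.69, where the other low DOX arrays read 11.17 and 10.89. Most counts of called members that use these day 1 groups are therefore also given without this pair. Other day 1 values are from all arrays unless stated. KO day 0 replicate 2 also stood apart, with a Gapdh 3' minus 5' difference of 0.25, against -0.08 to 0.04 on the other 29 arrays, and counts that use the KO day 0 arrays are given with and without it. Xist and Y-linked transcripts showed that replicates 1 and 2 of every KO group were from males, while replicate 3 of every KO group and every WT replicate were from females.

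All 6 measured B cell markers were above the table's median intensity on at least 1 array of each group. Other cell types were also present in the signal. The summed intensity of 15 myeloid markers was 9772 to 17759 on the day 3 KO arrays with zero DOX, 4432 to 7225 with low DOX and 2830 to 3557 with high DOX, against 3161 to 3459 on the day 3 WT arrays, with 11 of the 15 called higher in KO zero DOX than in WT. For 7 NK cell markers the sums were 7746 to 14775 at zero, 6092 to 11391 at low and 1784 to 3028 at high DOX, against 2211 to 3309 in WT, with 7 of 7 called higher in KO zero DOX than in WT. Sums of 6 T cell markers were 2148 to 2359, 1915 to 2248 and 2073 to 2231 at those doses, against 1654 to 1789 in WT. Those of 5 dendritic cell markers were 1077 to 1276, 1104 to 1268 and 1251 to 1434, against 996 to 1032 in WT. The B cell sum was 34600 to 39895 with high DOX and 53488 to 64919 with zero DOX, and 6 of 6 B cell markers were called lower with high DOX. Sums of 9 plasma cell markers ran the other way, at 12647 to 14035, 26214 to 33336 and 37621 to 41112 in KO cultures with zero, low and high DOX, against 32716 to 33829 in WT cultures. Bright sets weigh most in such a sum. Mean Jchain intensity was 79.4 at zero and 11510 at high DOX, and that of Xbp1 was 7239 and 13860. The list also holds the brighter Irf4 set, at 2213 and 2337. No erythroid marker passed the filter on dim probe sets. Hba-a1, Alas2 and Klf1 were measured below it, at group means between 6.6 and 7.34 on the log2 scale. What part these markers have in the results below was not tested. In bulk RNA, fewer cells of a type and less RNA per cell cannot be told apart.

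At day 3 the transport genes were mostly lower in KO cultures with zero DOX than in WT cultures, and nearly all were higher with high DOX than with zero DOX. Against WT, 31 members were called lower and 3 higher in KO with zero DOX, 64.2% of the 53, while 34.9% of all genes tested were called (15.8% lower and 19% higher). The members' median difference was -0.23, against 0.00 over all genes. The arrays of the groups did not overlap for 33 members below WT and 4 above it, against 20.9% and 25.4% of all genes. With a term for sex in the fit the counts were 34 lower and 3 higher. With high DOX, 49 members were called higher and 2 lower than with zero DOX, 96.2% of the 53, while 48.6% of all genes were called (24.4% higher and 24.2% lower), and the median difference was 0.55, against 0.00 over all genes. The arrays did not overlap for 50 members above and 2 below, against 27.2% and 28.4% of all genes. Srp14 and the giant Golgi tether Golgb1 were not called. Both comparisons use the same day 3 zero DOX arrays. When arrays were centred on their medians, the share of calls over all genes that was higher in KO went to 39.1%, against 54.6% as deposited, and the members' calls to 33 lower and 1 higher.

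**Figure D1:**
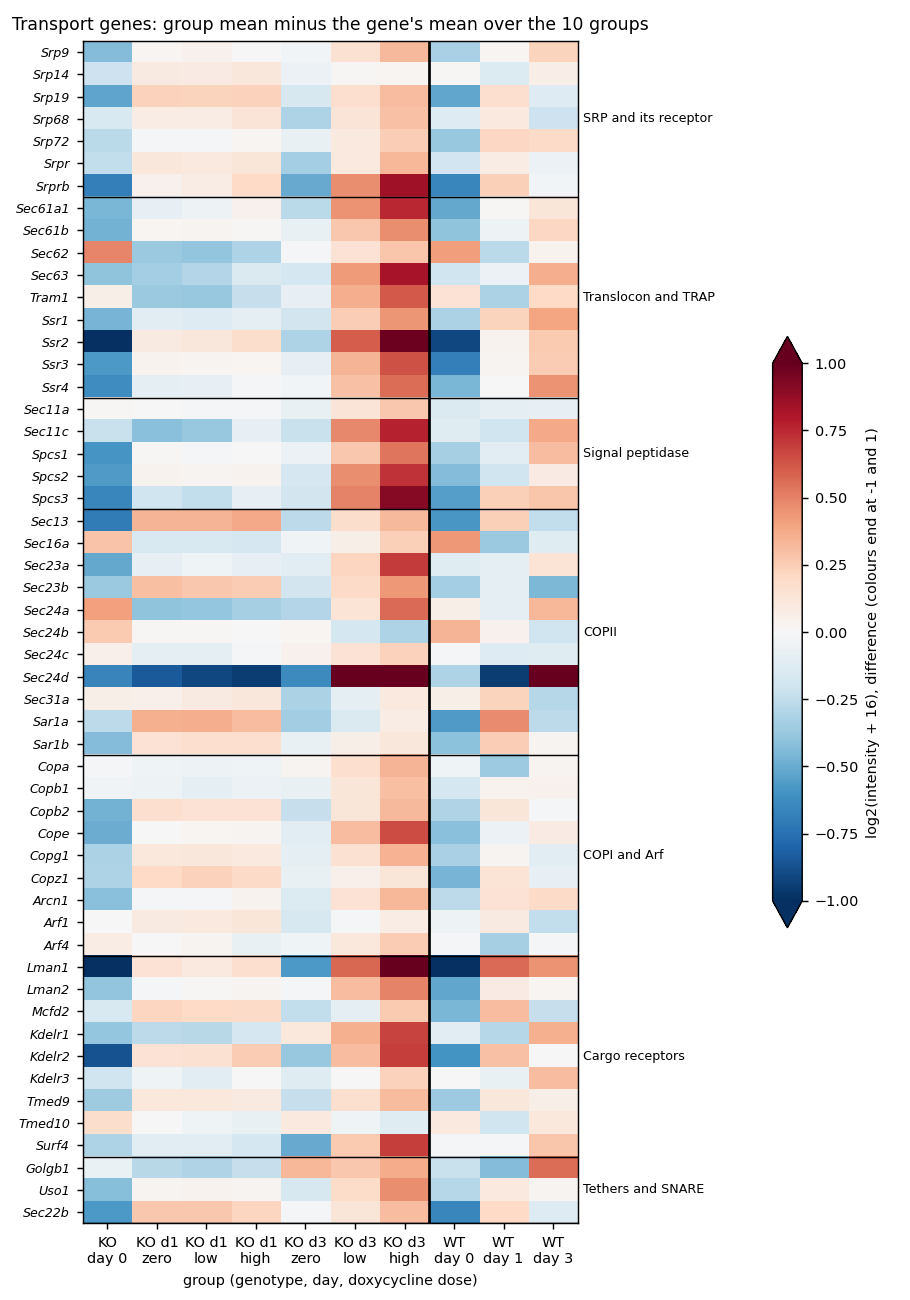
Each cell is a group's mean log2(intensity + 16) minus the gene's mean over the 10 groups, for the 53 tested genes in rows by role and the groups in columns, with KO groups left of WT groups (red higher, blue lower; colours end at -1 and 1, a log2 scale). The column of KO day 3 high DOX is the reddest in most rows, and Sec24d runs past the upper end of the colour scale in KO day 3 low and high DOX and in WT day 3.

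Members called lower in KO zero DOX than in WT at day 3 were counted by role, where 15.8% of all genes were called lower. Of the 7 tested genes of the signal recognition particle and its receptor, 5 were lower, as were 8 of 9 translocon and TRAP genes, 4 of 5 signal peptidase genes and 6 of 9 cargo receptors, against 3 of 11 COPII genes, 3 of 9 COPI and Arf genes and 2 of 3 docking genes. The 3 genes called higher in KO, Sec23b, Sec24b and Sec24c, were all in the COPII class. With high against zero DOX, 6 of 7, 9 of 9, 5 of 5 and 8 of 9 of these first 4 classes were called higher, and 10 of 11 COPII genes, 9 of 9 COPI and Arf genes and 2 of 3 docking genes. Of all genes, 24.4% were called higher with high than with zero DOX. Whether classes differ from each other was not tested.

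**Figure D2:**
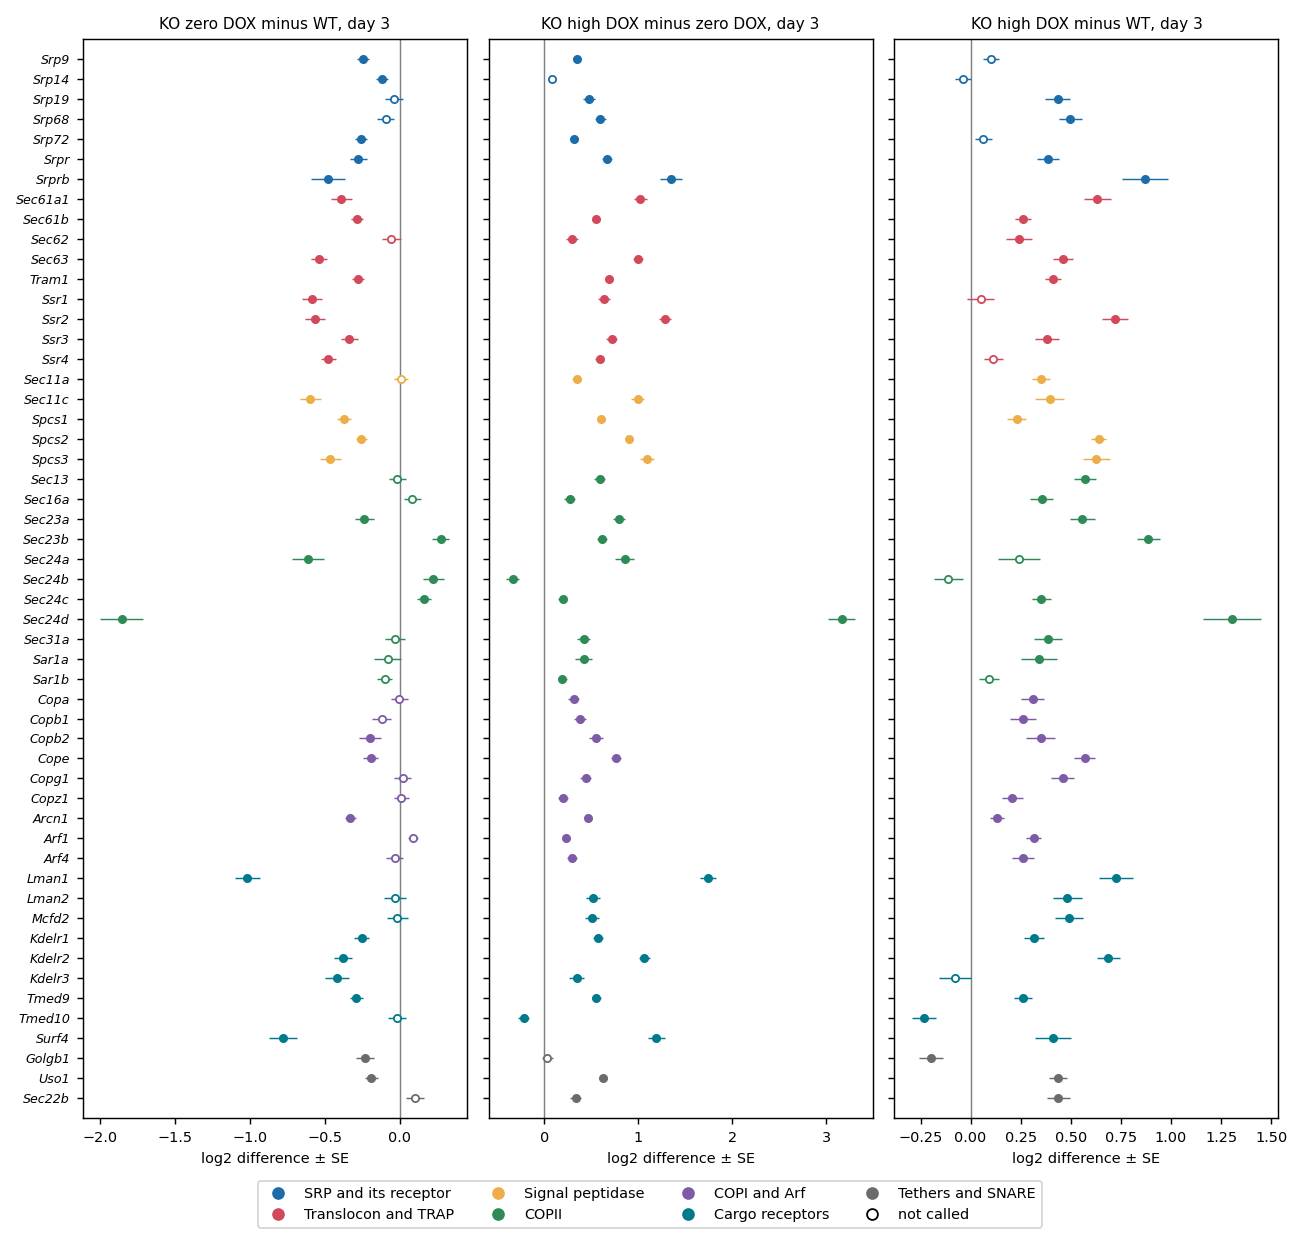
Day 3 differences in log2 units (x axes, which differ between panels) with SE bars, for KO zero DOX minus WT, KO high DOX minus zero DOX and KO high DOX minus WT, with the 53 genes in rows and coloured by role. Filled points were called at adjusted p under 0.05 and open points were not. Most filled points lie left of 0 in the first panel and right of 0 in the other panels.

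Promoters were searched for letters that the unfolded protein response factors Xbp1 and Atf6 are known to bind. The 250 bases before the annotated start, from RefSeq on GRCm38.p6, were found for 44 of the 56 members. Srp19, Srp68, Sec61a1, Tram1, Ssr2, Sec11c, Spcs3, Arcn1, Lman1, Kdelr2, Tmed2 and Golgb1 had no entry. Each motif was searched on both strands: TGACGTGG, known as the UPRE, its shorter core ACGTGG, which every UPRE match contains, GCCACGT, which holds the core on its other strand, and the ER stress elements ERSE and ERSE-II in full, including their CCAAT part. GCCACGT was in 12 of the 44 promoters (27.3%), against 2.34% of the 27025 promoters of all genes and 3.58% of those of 9852 tested genes. The core was in 18 (40.9%, against 7.85% and 11.1%), the UPRE in 4 (9.09%, against 0.603% and 0.883%) and the ER stress elements in 0 (0.13% and 0.037% of all promoters). Those elements are so rare in full that 0 among 44 promoters does not set the members apart. A match describes these letters and is not a measured binding site. Printed below are the 5 promoters holding GCCACGT whose genes had the largest high minus zero DOX difference at day 3, so they were chosen for the match. For contrast, Sec24b, which fell with high DOX, and Surf4, which had the largest such difference among members with an entry and no match, are also printed. Capitals mark the matches.
Sec24d, chr3:123267246-123267495, plus strand: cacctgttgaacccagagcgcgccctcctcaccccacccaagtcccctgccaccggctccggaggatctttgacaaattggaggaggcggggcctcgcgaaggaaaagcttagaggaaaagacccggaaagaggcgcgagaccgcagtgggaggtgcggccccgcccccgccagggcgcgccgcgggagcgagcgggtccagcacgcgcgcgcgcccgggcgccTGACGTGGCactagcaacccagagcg
Srprb, chr9:103202066-103202315, minus strand: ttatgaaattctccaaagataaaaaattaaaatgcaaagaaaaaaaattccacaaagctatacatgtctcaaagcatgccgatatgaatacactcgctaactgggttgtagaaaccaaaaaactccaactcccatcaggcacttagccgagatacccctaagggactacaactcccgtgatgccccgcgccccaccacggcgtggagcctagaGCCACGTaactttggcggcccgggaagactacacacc
Sec63, chr10:42761246-42761495, plus strand: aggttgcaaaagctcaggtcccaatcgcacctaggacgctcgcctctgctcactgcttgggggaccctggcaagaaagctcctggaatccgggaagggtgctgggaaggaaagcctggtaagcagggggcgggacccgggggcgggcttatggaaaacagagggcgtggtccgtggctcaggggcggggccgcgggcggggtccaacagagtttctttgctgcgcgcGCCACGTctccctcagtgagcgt
Ssr3, chr3:65392554-65392803, minus strand: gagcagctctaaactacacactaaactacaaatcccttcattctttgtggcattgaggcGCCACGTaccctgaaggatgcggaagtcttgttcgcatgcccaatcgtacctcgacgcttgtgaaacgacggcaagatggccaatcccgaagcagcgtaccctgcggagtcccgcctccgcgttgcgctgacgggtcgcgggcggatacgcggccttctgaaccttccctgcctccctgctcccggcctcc
Ssr1, chr13:37994209-37994458, minus strand: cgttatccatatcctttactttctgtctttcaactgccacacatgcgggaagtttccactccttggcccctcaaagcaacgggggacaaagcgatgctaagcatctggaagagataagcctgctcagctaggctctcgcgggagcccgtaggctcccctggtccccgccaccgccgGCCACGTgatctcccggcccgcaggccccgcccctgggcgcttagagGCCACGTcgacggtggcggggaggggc
Sec24b, chr3:130060908-130061157, minus strand: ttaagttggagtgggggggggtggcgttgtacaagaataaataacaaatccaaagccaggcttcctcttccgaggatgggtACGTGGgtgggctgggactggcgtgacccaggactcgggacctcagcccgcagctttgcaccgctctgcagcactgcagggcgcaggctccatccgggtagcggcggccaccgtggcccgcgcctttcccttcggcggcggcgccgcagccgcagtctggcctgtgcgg
Surf4, chr2:26933512-26933761, minus strand: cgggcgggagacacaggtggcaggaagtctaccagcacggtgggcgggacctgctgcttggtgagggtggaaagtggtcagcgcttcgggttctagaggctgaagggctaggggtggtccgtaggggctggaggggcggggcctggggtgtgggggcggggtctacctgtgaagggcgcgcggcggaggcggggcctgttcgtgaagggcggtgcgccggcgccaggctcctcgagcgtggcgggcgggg

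In these sequences the base before the annotated start is position -1. Sec24d holds TGACGTGGC, a UPRE that runs into a GCCACGT on the other strand, with its first base at -26. GCCACGT began at -37 in Srprb, at -23 in Sec63 and at -191 in Ssr3, and Ssr1 held it at 2 places, the first of them at -74. Sec24b held the core alone, at -169, and Surf4 held none of the letters searched. The median high minus zero DOX difference at day 3 was 0.61 over the 12 tested members with GCCACGT and 0.43 over the 30 without it. For the core it was 0.46 over 18 with and 0.53 over 24 without, and for the UPRE 0.36 over 4 with and 0.53 over 38 without. The order of those medians thus depended on the motif. Members without a promoter entry, among them Lman1, Ssr2, Spcs3, Kdelr2 and Sec61a1, are not in these medians. These medians were not tested.

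Entry into the ER began with the particle and its receptor. Srprb, the membrane-anchored beta subunit of the receptor, moved most in this class. In KO cultures, Srprb read 9.07, 9.0 and 8.85 with zero DOX, 10.15, 10.00 and 9.68 with low DOX and 10.45, 10.40 and 10.11 with high DOX, against 9.54, 9.41 and 9.40 in WT cultures. The zero DOX arrays all lay below the WT arrays, and the low and high DOX arrays all lay above them; the lowest high DOX array lay just inside the low DOX range. Its difference was -0.48 ± 0.11 for KO zero DOX minus WT (adjusted p = 0.00209) and 1.35 ± 0.11 for high minus zero DOX (adjusted p = 9.46e-10). Srpr, the alpha subunit that meets the particle, followed it at a smaller size. In KO cultures, Srpr read 10.55, 10.49 and 10.44 with zero DOX, 11.02, 10.99 and 10.78 with low DOX and 11.18, 11.20 and 11.10 with high DOX, against 10.80, 10.79 and 10.72 in WT cultures. The zero, low and high DOX arrays lay in separate rising ranges, and the low DOX range overlapped WT. The Srpr difference was -0.28 ± 0.06 for KO zero DOX minus WT (adjusted p = 0.000423) and 0.67 ± 0.06 for high minus zero DOX (adjusted p = 9.24e-10). The particle's own proteins changed less. Srp9, Srp14 and Srp72 were called lower in KO zero DOX than in WT, by differences of -0.24, -0.12 and -0.26, and Srp19 and Srp68 were not called (-0.04 and -0.09). Of these, Srp9, Srp19, Srp68 and Srp72 were higher with high than with zero DOX, at 0.32 to 0.59, and Srp14 was not called at 0.08.

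At the channel itself, Sec61a1, which forms the pore, showed the same order of groups. In KO cultures, Sec61a1 read 11.90, 11.81 and 11.83 with zero DOX, 12.72, 12.59 and 12.40 with low DOX and 12.92, 12.92 and 12.77 with high DOX, against 12.26, 12.19 and 12.26 in WT cultures. None of the 4 ranges overlapped, with zero DOX lowest, then WT, then low and high DOX. The difference was -0.39 ± 0.07 for KO zero DOX minus WT (adjusted p = 9.5e-05) and 1.02 ± 0.07 for high minus zero DOX (adjusted p = 1.77e-11). Among the TRAP subunits, which assist the translocon with some signal sequences, Ssr2 moved furthest with the dose. In KO cultures, Ssr2 read 10.71, 10.75 and 10.64 with zero DOX, 11.73, 11.68 and 11.42 with low DOX and 12.04, 12.03 and 11.89 with high DOX, against 11.35, 11.29 and 11.17 in WT cultures. Again the 4 ranges were separate and in the order zero DOX, WT, low DOX and high DOX. Ssr2 differed by -0.57 ± 0.06 between KO zero DOX and WT (adjusted p = 3.63e-07) and by 1.29 ± 0.06 between high and zero DOX (adjusted p = 1.12e-13). Ssr1 had the largest KO minus WT difference in this class, and its high DOX arrays did not pass WT. In KO cultures, Ssr1 read 11.93, 11.78 and 11.76 with zero DOX, 12.38, 12.29 and 12.10 with low DOX and 12.51, 12.48 and 12.39 with high DOX, against 12.48, 12.39 and 12.36 in WT cultures. The zero DOX arrays lay below all others, and the low and high DOX ranges both overlapped WT. Its differences were -0.59 ± 0.07 for KO zero DOX minus WT (adjusted p = 3.77e-07) and 0.64 ± 0.07 for high minus zero DOX (adjusted p = 3.27e-08). The channel subunit Sec61b, the Sec61 partner Sec63, the membrane protein Tram1 and the TRAP subunits Ssr3 and Ssr4 were called lower in KO zero DOX than in WT, at -0.28 to -0.54, and higher with high than with zero DOX, at 0.54 to 1.00. Sec62, which works with Sec63, was not called against WT (-0.06) and was 0.30 higher with high than with zero DOX.

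Signal peptidase holds 1 of 2 catalytic subunits, Sec11a or Sec11c. In KO cultures, Sec11c read 12.35, 12.41 and 12.27 with zero DOX, 13.17, 13.03 and 12.93 with low DOX and 13.32, 13.37 and 13.32 with high DOX, against 13.00, 12.91 and 12.91 in WT cultures. Zero DOX lay far below WT, low DOX overlapped WT and high DOX lay above it. The Sec11c difference was -0.60 ± 0.07 for KO zero DOX minus WT (adjusted p = 8.44e-07) and 0.99 ± 0.07 for high minus zero DOX (adjusted p = 8.09e-11). A dimmer Sec11c probe set gave -0.16 for the first difference (adjusted p = 0.209) and 0.94 for the second, so the loss in KO rests on the probe set used. In KO cultures, Sec11a read 12.36, 12.35 and 12.33 with zero DOX, 12.53, 12.59 and 12.53 with low DOX and 12.72, 12.70 and 12.65 with high DOX, against 12.31, 12.34 and 12.36 in WT cultures. Its zero DOX and WT ranges overlapped, and the low and high DOX ranges lay above both. Sec11a differed by 0.01 ± 0.05 between KO zero DOX and WT (adjusted p = 0.913) and by 0.34 ± 0.05 between high and zero DOX (adjusted p = 9.58e-07). Whether the paralogues' differences differ from each other was not tested. Spcs3, an accessory subunit of the peptidase, showed 4 separate ranges. In KO cultures, Spcs3 read 11.31, 11.27 and 11.28 with zero DOX, 12.05, 11.97 and 11.90 with low DOX and 12.36, 12.37 and 12.41 with high DOX, against 11.74, 11.70 and 11.81 in WT cultures. Zero DOX was lowest, WT next, and low and high DOX lay above WT. Its difference was -0.46 ± 0.07 for KO zero DOX minus WT (adjusted p = 1.36e-05) and 1.09 ± 0.07 for high minus zero DOX (adjusted p = 7.03e-12). The accessory subunits Spcs1 and Spcs2 were lower in KO zero DOX than in WT at -0.37 and -0.26, and higher with high than with zero DOX at 0.60 and 0.90.

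**Figure D3:**
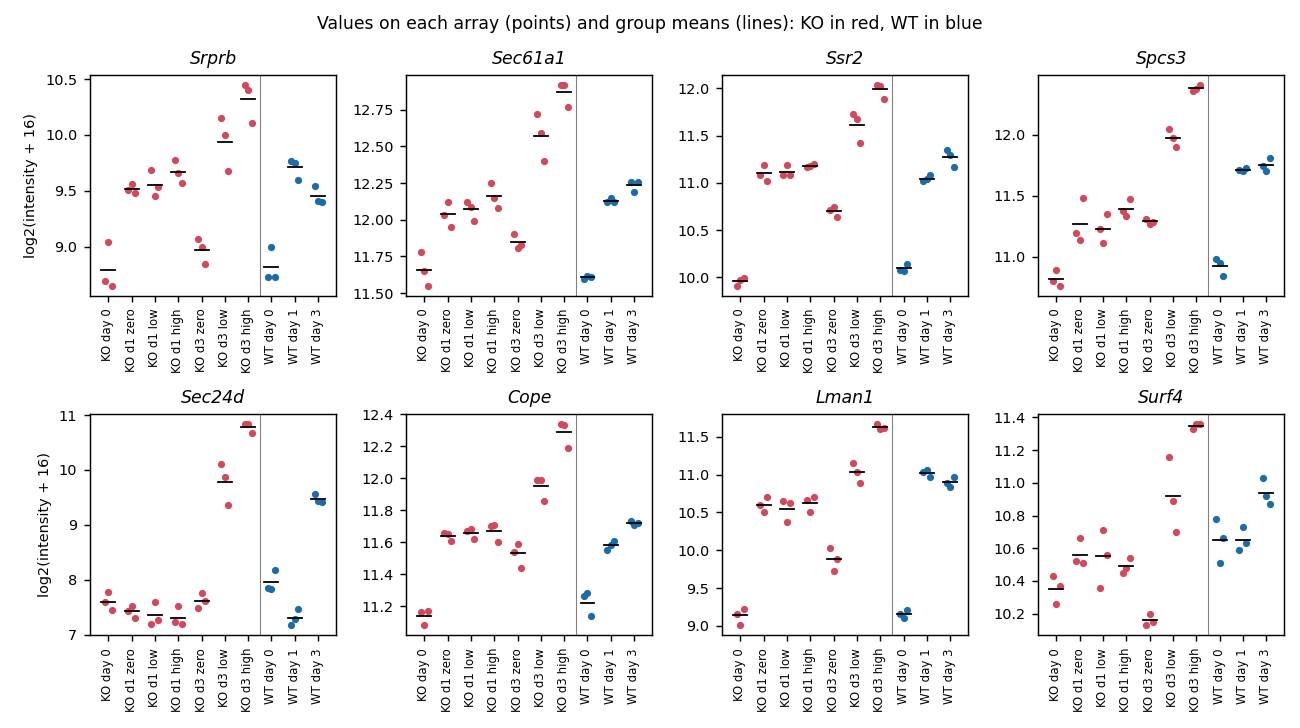
log2(intensity + 16) of 8 members (y axes, which differ between panels and do not start at 0) on each of the 30 arrays, as points by group, with group means as lines, KO groups in red to the left of WT groups in blue. In each panel except Srprb the high DOX points of day 3 are the highest of the KO points. In Srprb the lowest of them lies inside the low DOX range.

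COPII held the largest change among the 53 tested members and also Sec24b, 1 of the 2 members that fell with high DOX. Sec24 proteins form the inner coat layer that binds cargo, and Sec24d stood out. In KO cultures, Sec24d read 7.49, 7.75 and 7.61 with zero DOX, 10.10, 9.87 and 9.37 with low DOX and 10.84, 10.83 and 10.67 with high DOX, against 9.56, 9.44 and 9.42 in WT cultures. On the linear scale its mean intensity was 180.9 at zero, 882.5 at low and 1742 at high DOX in KO cultures, against 695.2 in WT cultures. The zero DOX arrays lay far below WT, the low DOX range was wide and held WT within it, and high DOX lay above both. The difference was -1.86 ± 0.14 for KO zero DOX minus WT (adjusted p = 1.02e-09) and 3.16 ± 0.14 for high minus zero DOX (adjusted p = 2.11e-14). In KO zero DOX cultures Sec24d was above the table's median intensity on 1 of 3 arrays, so the exact size of both differences rests on a group near the filter. Sec24a moved the same way at a smaller size. In KO cultures, Sec24a read 9.95, 9.93 and 9.80 with zero DOX, 10.47, 10.33 and 10.15 with low DOX and 10.76, 10.80 and 10.69 with high DOX, against 10.51, 10.47 and 10.54 in WT cultures. Zero DOX lay below WT, low DOX reached the lower end of WT, and high DOX lay above it without being called (0.24, adjusted p = 0.0676). Its differences were -0.61 ± 0.10 for KO zero DOX minus WT (adjusted p = 6.81e-05) and 0.85 ± 0.10 for high minus zero DOX (adjusted p = 3.17e-07), although a dimmer Sec24a set gave -0.16 for KO minus WT (adjusted p = 0.347).

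Sec24b and Sec24c were higher in KO zero DOX than in WT, and of the 4 Sec24 paralogues Sec24b fell with the dose. In KO cultures, Sec24b read 10.55, 10.54 and 10.60 with zero DOX, 10.31, 10.36 and 10.40 with low DOX and 10.26, 10.18 and 10.24 with high DOX, against 10.27, 10.31 and 10.44 in WT cultures. The zero DOX arrays lay above all others, low DOX overlapped WT and high DOX lay below it. Sec24b was 0.22 ± 0.07 higher in KO zero DOX than in WT (adjusted p = 0.0163), a call lost when arrays were centred on their medians (0.17, adjusted p = 0.0602), and it fell with high DOX by a difference of -0.34 ± 0.07 (adjusted p = 0.000378). The Sec24b call against WT was also lost without KO zero DOX replicate 3 (0.21, adjusted p = 0.0517), without WT replicate 1 (0.19, adjusted p = 0.0841) and without WT replicate 2 (0.21, adjusted p = 0.0562). In KO cultures, Sec24c read 11.48, 11.53 and 11.41 with zero DOX, 11.60, 11.60 and 11.53 with low DOX and 11.71, 11.68 and 11.61 with high DOX, against 11.29, 11.30 and 11.36 in WT cultures. All KO arrays lay above the WT arrays, and zero, low and high DOX lay in separate rising ranges. Sec24c was 0.16 ± 0.05 higher in KO zero DOX than in WT (adjusted p = 0.00915). This call was lost on centring (0.11, adjusted p = 0.0737) and with only the arrays compared in the fit (0.16, adjusted p = 0.0709). It was also lost without KO zero DOX replicate 2 (0.13, adjusted p = 0.0604) and with a dimmer probe set (0.05, adjusted p = 0.564). The Sec24c difference for high minus zero DOX was 0.19 ± 0.05 (adjusted p = 0.0012), and 0.06 with the dimmer set (adjusted p = 0.438).

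Sec23 proteins pair with Sec24 in the inner coat and stimulate the GTPase Sar1. In KO cultures, Sec23a read 9.90, 9.76 and 9.72 with zero DOX, 10.21, 10.12 and 10.00 with low DOX and 10.59, 10.67 and 10.50 with high DOX, against 10.05, 10.02 and 10.02 in WT cultures. WT lay above zero DOX, within the low DOX range and below high DOX. Sec23a differed by -0.24 ± 0.06 between KO zero DOX and WT (adjusted p = 0.00443) and by 0.79 ± 0.06 between high and zero DOX (adjusted p = 2.4e-10). In KO cultures, Sec23b read 11.42, 11.29 and 11.40 with zero DOX, 11.82, 11.74 and 11.67 with low DOX and 12.05, 11.95 and 11.95 with high DOX, against 11.09, 11.07 and 11.13 in WT cultures. Every KO array, at any dose, lay above every WT array, and the 3 doses lay in separate rising ranges. Sec23b was thus higher in KO zero DOX than in WT by 0.27 ± 0.06 (adjusted p = 0.000622) and rose further with high DOX, by 0.61 ± 0.06 (adjusted p = 4.8e-09). Sar1a and Sar1b, the GTPases that start coat assembly, moved little. In KO cultures, Sar1a read 11.07, 10.87 and 10.85 with zero DOX, 11.22, 11.14 and 11.03 with low DOX and 11.41, 11.38 and 11.27 with high DOX, against 11.08, 10.97 and 10.98 in WT cultures. Zero DOX, low DOX and WT overlapped, and high DOX lay above them. The Sar1a difference was -0.08 ± 0.09 for KO zero DOX minus WT (adjusted p = 0.533) and 0.42 ± 0.09 for high minus zero DOX (adjusted p = 0.000436). A dimmer Sar1a set gave 0.12 for KO minus WT (adjusted p = 0.0339) and 0.07 for the dose (adjusted p = 0.222). In KO cultures, Sar1b read 12.20, 12.14 and 12.02 with zero DOX, 12.28, 12.27 and 12.19 with low DOX and 12.32, 12.34 and 12.27 with high DOX, against 12.22, 12.23 and 12.21 in WT cultures. Zero DOX lay just below WT and high DOX just above it. Sar1b differed by -0.10 ± 0.05 between KO zero DOX and WT (adjusted p = 0.113; -0.15, adjusted p = 0.0244 on centred arrays and -0.15, adjusted p = 0.00549 with a sex term) and by 0.19 ± 0.05 between high and zero DOX (adjusted p = 0.00193). The outer coat genes Sec13 and Sec31a and the ER exit site scaffold Sec16a were not called against WT, at -0.02, -0.03 and 0.08, and were higher with high than with zero DOX, at 0.59, 0.42 and 0.27.

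**Figure D4:**
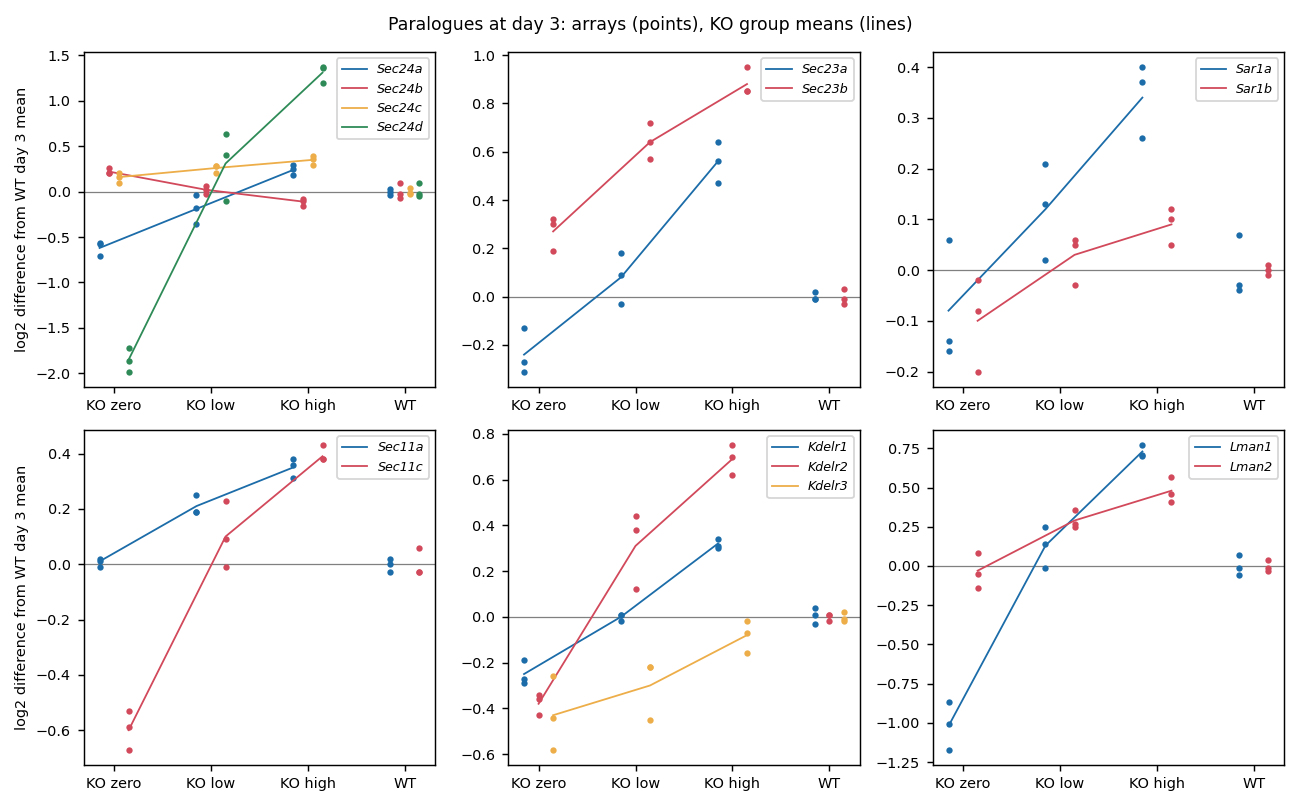
Day 3 values of 6 sets of paralogues as log2 differences from the gene's WT day 3 mean (y axes, which differ between panels), with arrays as points and KO group means joined by lines in the order zero, low and high DOX and WT arrays at the right. Sec24d spans the widest range of the 6 panels while Sec24b declines with dose, Sec23b lies above WT at each dose, and the Sec11a zero DOX points lie at WT while those of Sec11c lie below it.

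At day 3 the 9 tested COPI coat and Arf genes were all called higher with high than with zero DOX, against 24.4% of all genes. Of them, 3 were called lower in KO zero DOX than in WT, against 15.8% of all genes. Cope, a coat subunit, moved most with the dose. In KO cultures, Cope read 11.54, 11.59 and 11.44 with zero DOX, 11.99, 11.99 and 11.86 with low DOX and 12.34, 12.33 and 12.19 with high DOX, against 11.73, 11.71 and 11.72 in WT cultures. The 4 ranges were separate, in the order zero DOX, WT, low DOX and high DOX. Cope differed by -0.19 ± 0.05 between KO zero DOX and WT (adjusted p = 0.00438) and by 0.76 ± 0.05 between high and zero DOX (adjusted p = 1.51e-11). Arcn1, the delta subunit, had the largest loss of the class. In KO cultures, Arcn1 read 11.90, 11.89 and 11.83 with zero DOX, 12.22, 12.12 and 12.11 with low DOX and 12.34, 12.33 and 12.34 with high DOX, against 12.23, 12.20 and 12.18 in WT cultures. Zero DOX lay below WT, low DOX overlapped WT and high DOX lay just above it. Its differences were -0.33 ± 0.04 for KO zero DOX minus WT (adjusted p = 1.37e-07) and 0.46 ± 0.04 for high minus zero DOX (adjusted p = 1.77e-10). Copb2, the beta-prime subunit, had a wide low DOX group. In KO cultures, Copb2 read 10.88, 10.83 and 10.79 with zero DOX, 11.40, 11.16 and 10.97 with low DOX and 11.40, 11.40 and 11.35 with high DOX, against 11.11, 10.99 and 11.00 in WT cultures. WT lay above zero DOX and below high DOX, while low DOX spanned WT and reached high DOX. The Copb2 difference was -0.20 ± 0.07 for KO zero DOX minus WT (adjusted p = 0.0348) and 0.55 ± 0.07 for high minus zero DOX (adjusted p = 9.72e-07). The first of these was lost without KO zero DOX replicate 2 (-0.20, adjusted p = 0.0826), without KO zero DOX replicate 3 (-0.18, adjusted p = 0.0962) and without WT replicate 1 (-0.16, adjusted p = 0.147). The coat subunits Copa, Copb1, Copg1 and Copz1 and the GTPases Arf1 and Arf4 were not called against WT, at -0.12 to 0.09, and were all called higher with high than with zero DOX, at 0.20 to 0.44.

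Among the cargo receptors, Lman1, a lectin that carries glycoproteins out of the ER and is known for coagulation factors, changed most. In KO cultures, Lman1 read 10.03, 9.73 and 9.89 with zero DOX, 11.15, 11.04 and 10.89 with low DOX and 11.67, 11.60 and 11.61 with high DOX, against 10.89, 10.84 and 10.97 in WT cultures. Zero DOX lay below all others, low DOX overlapped WT and high DOX lay above it. Lman1 differed by -1.02 ± 0.08 between KO zero DOX and WT (adjusted p = 2.39e-09) and by 1.74 ± 0.08 between high and zero DOX (adjusted p = 5.21e-14). The other 3 tested Lman1 sets gave -0.62 to -1.31 for the first difference and 0.81 to 2.16 for the second. Lman2, a lectin of the same family, did not fall in KO. In KO cultures, Lman2 read 9.75, 9.53 and 9.62 with zero DOX, 10.03, 9.92 and 9.94 with low DOX and 10.24, 10.13 and 10.08 with high DOX, against 9.66, 9.71 and 9.64 in WT cultures. Zero DOX overlapped WT, and low and high DOX lay above both. The Lman2 difference was -0.03 ± 0.07 for KO zero DOX minus WT (adjusted p = 0.766) and 0.52 ± 0.07 for high minus zero DOX (adjusted p = 3.19e-06; 0.18, adjusted p = 0.0556 with a dimmer set). Mcfd2, the partner protein of Lman1, was likewise not called against WT (-0.02) and 0.51 higher with high than with zero DOX. Surf4, a receptor for soluble secreted proteins, followed Lman1. In KO cultures, Surf4 read 10.13, 10.20 and 10.15 with zero DOX, 11.16, 10.89 and 10.70 with low DOX and 11.33, 11.36 and 11.36 with high DOX, against 11.03, 10.92 and 10.87 in WT cultures. Zero DOX lay below all others, low DOX spanned WT and high DOX lay above it. Surf4 differed by -0.78 ± 0.09 between KO zero DOX and WT (adjusted p = 4.81e-07) and by 1.19 ± 0.09 between high and zero DOX (adjusted p = 1.8e-10).

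The KDEL receptors, which return ER-resident chaperones from the Golgi, all fell in KO at day 3. In KO cultures, Kdelr2 read 11.07, 11.05 and 10.98 with zero DOX, 11.85, 11.79 and 11.53 with low DOX and 12.11, 12.16 and 12.03 with high DOX, against 11.42, 11.39 and 11.42 in WT cultures. The 4 ranges were separate, in the order zero DOX, WT, low DOX and high DOX. Kdelr2 differed by -0.38 ± 0.06 between KO zero DOX and WT (adjusted p = 2.76e-05) and by 1.06 ± 0.06 between high and zero DOX (adjusted p = 7.9e-13). In KO cultures, Kdelr1 read 10.95, 10.97 and 11.05 with zero DOX, 11.25, 11.25 and 11.22 with low DOX and 11.55, 11.54 and 11.58 with high DOX, against 11.25, 11.28 and 11.21 in WT cultures. Zero DOX lay below WT, low DOX overlapped it and high DOX lay above it. The Kdelr1 difference was -0.25 ± 0.05 for KO zero DOX minus WT (adjusted p = 0.000329) and 0.57 ± 0.05 for high minus zero DOX (adjusted p = 1.71e-09). In KO cultures, Kdelr3 read 7.55, 7.41 and 7.73 with zero DOX, 7.54, 7.77 and 7.77 with low DOX and 7.92, 7.83 and 7.97 with high DOX, against 7.98, 7.97 and 8.01 in WT cultures. This dim probe set lay below WT at zero and low DOX and reached the lower end of WT at high DOX. Its differences were -0.42 ± 0.08 for KO zero DOX minus WT (adjusted p = 0.000216) and 0.34 ± 0.08 for high minus zero DOX (adjusted p = 0.000975). The p24 family members went separate ways. Tmed9 was lower in KO zero DOX than in WT (-0.29) and higher with high than with zero DOX (0.55), whereas Tmed10 was 1 of the 2 members that fell with high DOX. In KO cultures, Tmed10 read 11.22, 11.18 and 11.28 with zero DOX, 11.07, 11.10 and 11.11 with low DOX and 10.90, 11.05 and 11.09 with high DOX, against 11.28, 11.35 and 11.10 in WT cultures. Low and high DOX lay below zero DOX, and WT overlapped zero and low DOX. Tmed10 differed by -0.02 ± 0.06 between KO zero DOX and WT (adjusted p = 0.864) and by -0.22 ± 0.06 between high and zero DOX (adjusted p = 0.00381).

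The 3 docking genes each behaved in their own way. Uso1, the p115 tether of arriving vesicles, followed the majority. In KO cultures, Uso1 read 10.93, 10.83 and 10.83 with zero DOX, 11.27, 11.24 and 11.12 with low DOX and 11.54, 11.46 and 11.46 with high DOX, against 11.06, 11.00 and 11.09 in WT cultures. The 4 ranges were separate, in the order zero DOX, WT, low DOX and high DOX. Uso1 differed by -0.19 ± 0.05 between KO zero DOX and WT (adjusted p = 0.0025) and by 0.62 ± 0.05 between high and zero DOX (adjusted p = 9.74e-11). Golgb1, known as giantin, was lower in KO at every dose. In KO cultures, Golgb1 read 9.84, 9.93 and 9.90 with zero DOX, 9.90, 9.76 and 9.83 with low DOX and 9.85, 9.92 and 10.01 with high DOX, against 10.12, 10.02 and 10.22 in WT cultures. The KO doses overlapped each other and all lay below WT. The Golgb1 difference was -0.23 ± 0.06 for KO zero DOX minus WT (adjusted p = 0.00423), -0.20 ± 0.06 for KO high DOX minus WT (adjusted p = 0.0102) and 0.03 ± 0.06 for high minus zero DOX (adjusted p = 0.683). A dimmer Golgb1 set gave -0.14 for KO zero DOX minus WT (adjusted p = 0.131) and 0.20 for high minus zero DOX (adjusted p = 0.0227). Sec22b, a SNARE that fuses ER and Golgi carriers, was not called against WT, though with array weights it was called higher in KO zero DOX (0.15, adjusted p = 0.0176). In KO cultures, Sec22b read 11.25, 11.19 and 11.06 with zero DOX, 11.33, 11.41 and 11.19 with low DOX and 11.53, 11.55 and 11.43 with high DOX, against 11.00, 11.06 and 11.13 in WT cultures. Zero DOX overlapped WT, and low and high DOX lay above WT. Sec22b differed by 0.10 ± 0.06 between KO zero DOX and WT (adjusted p = 0.192) and by 0.34 ± 0.06 between high and zero DOX (adjusted p = 4.87e-05).

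Most members were higher after each dose step at day 3. Between low and zero DOX, 42 members were called higher and 1 lower (Sec24b), while 35.8% of all genes were called (17.6% higher and 18.2% lower), and the members' median was 0.33, against -0.03 over all genes. The low and zero DOX arrays did not overlap for 45 members above and 2 below, against 21.5% and 23.1% of all genes. Between high and low DOX, 33 members were called higher, while 12.8% of all genes were called (6.69% higher and 6.09% lower), and the median was 0.20, against 0.02. The arrays did not overlap for 41 members above and 1 below, against 15.8% and 14.6% of all genes. limma called 0 members lower at that step, and 0 had an unadjusted p under 0.05 in that direction. Without KO day 3 low DOX replicate 3 the 33 became 20. These steps share the low DOX arrays. The arrays of the 3 doses lay in separate rising ranges for 38 of the 53 members, against 7.86% of all genes, and 30 members were called at both steps, against 4.44%. The 9 tested translocon and TRAP genes and the 5 signal peptidase genes were all among the 38, as were 6 of 11 COPII genes, 6 of 9 COPI and Arf genes, 7 of 9 cargo receptors, 4 of 7 genes of the particle and its receptor and 1 of 3 docking genes. Sec24d had the largest step of the tested members at both doses, 2.16 ± 0.14 for low minus zero DOX and 1.00 ± 0.14 for high minus low DOX, and Lman1 was next with 1.14 ± 0.08 and 0.60 ± 0.08. Xbp1, a factor known to act on secretory genes in plasma cells, read 12.82 ± 0.12, 13.51 ± 0.08 and 13.76 ± 0.01 at zero, low and high DOX in KO cultures, against 13.54 ± 0.04 in WT cultures. Bhlha15, known as Mist1, read 6.17 ± 0.10, 9.84 ± 0.41 and 10.84 ± 0.19 at those doses, against 9.31 ± 0.09 in WT cultures.

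At high DOX most members passed the WT level. With high DOX, 42 members were called higher than in WT and 2 lower, while 41.1% of all genes were called (22.1% higher and 19% lower), and the members' median was 0.36, against 0.01 over all genes. The high DOX and WT arrays did not overlap for 46 members above and 3 below, against 29.7% and 26% of all genes. Tmed10 and Golgb1 were the 2 lower ones. Sec24d (1.30), Sec23b (0.89), Srprb (0.87), Lman1 (0.73) and Ssr2 (0.72) had the largest differences. At low DOX, 23 members were called higher than in WT and 3 lower, while 34.2% of all genes were called (18.9% higher and 15.3% lower), with a median of 0.14, against -0.01. The low DOX and WT arrays did not overlap for 23 members above and 4 below, against 25% and 22.2% of all genes. With array weights the 26 calls became 41, 32 higher and 9 lower. The 3 lower ones were Ssr4 (-0.16), Kdelr3 (-0.29) and Golgb1 (-0.29). Of the 31 members that were lower in KO zero DOX than in WT, 29 rose with high DOX. Against WT, high DOX put 23 of the 31 above, left 7 not called (Srp9, Srp14, Srp72, Ssr1, Ssr4, Sec24a and Kdelr3) and 1, Golgb1, below. A further 18 members, among them Sec13, Sec31a, Sec11a, Lman2 and most COPI genes, were not called between KO zero DOX and WT and were higher with high than with zero DOX. These comparisons share day 3 arrays, so their counts are not independent. For counts that join 2 of them, the share of all genes was not computed.

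At days 0 and 1 the members' calls between genotypes ran in both directions. At day 0, 6 members were called higher and 12 lower in KO than in WT, while 31.5% of all genes were called (13.1% higher and 18.4% lower), and the median was -0.03, against -0.05 over all genes. Without KO day 0 replicate 2 the counts were 3 higher and 9 lower, and with only the arrays of these groups in the fit the 18 calls became 4. Sec23a was the lowest (-0.39) and Sec24a the highest (0.35). The myeloid sum was 8147 to 19288 in KO and 3957 to 4224 in WT at day 0, and Jchain, the plasma cell joining chain, read 6.16 ± 0.10 in KO and 13.21 ± 0.34 in WT before culture. At day 1, 9 members were called higher and 10 lower in KO zero DOX than in WT, while 49.6% of all genes were called (33.9% higher and 15.7% lower), and the median was 0.00, against 0.07 over all genes. Without these 2 arrays it was 8 and 8, and on centred arrays it was 6 and 16. The lowest were Spcs3 (-0.44), Lman1 (-0.42) and Ssr1 (-0.34), and the highest were Sec23b (0.41), Arf4 (0.34) and Copa (0.32). Arcn1, Kdelr2 and Sec63 were the 3 members called lower in KO at days 0, 1 and 3, and 12 members were called lower at day 3 and not called at days 0 and 1. Without KO day 0 replicate 2 these were 4, with Ssr1 added, and 16, and without the 2 day 1 arrays they were 3 and 13. Shares of all genes for these counts over several days were not computed. High DOX had little effect by day 1. Sec11c (0.33) and Sec63 (0.18) were the 2 members called higher than with zero DOX, while 2.75% of all genes were called (1.26% higher and 1.49% lower), and 1 was called without these 2 arrays. The arrays of high and zero DOX did not overlap for 10 members above and 1 below, against 10.5% and 7.77% of all genes.

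Between day 0 and day 1 more members rose than fell in both genotypes, and most of all genes changed as well. In WT, 35 members were called higher and 12 lower at day 1 than at day 0, while 81.5% of all genes were called (33.9% higher and 47.6% lower), and the median was 0.26, against -0.15 over all genes. The day 1 and day 0 arrays did not overlap for 36 members above and 12 below, against 35.5% and 50.4% of all genes. Centring the arrays shifted all differences of this comparison by a median of 0.135, and then 37 members were higher and 8 lower. In KO with zero DOX, 36 were higher and 9 lower, while 69.8% of all genes were called (39.8% higher and 30.1% lower), with a median of 0.37, against 0.06. Without KO day 0 replicate 2 these were 34 and 7, and without the 2 doubted day 1 arrays 33 and 8. In both genotypes 32 members rose and 7 fell, or 31 and 6 without KO day 0 replicate 2 and likewise without the 2 day 1 arrays. The share of all genes that rose or fell in both was not computed. Lman1 rose most among the members, by 1.47 in KO and 1.86 in WT. Its rise in KO was 1.41 without KO day 0 replicate 2 and 1.52 without the 2 day 1 arrays. Its mean at day 1 was 10.60 ± 0.10 in KO and 11.02 ± 0.05 in WT. Sec62 was among those that fell, with -0.86 in KO and -0.68 in WT, and Sec24d fell in WT (-0.64) while its KO difference was not called (-0.19). Sec24d was above the table's median intensity on 0 of 3 day 1 arrays in either genotype, so its sizes rest on groups near the filter.

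After day 1 more members were called lower than higher in KO with zero DOX, and more were called higher than lower in WT. In KO with zero DOX, 7 members were called higher and 26 lower at day 3 than at day 1, while 52.6% of all genes were called (25.9% higher and 26.7% lower), and the median was -0.11, against -0.02 over all genes. In WT, 25 were higher and 16 lower, while 69.4% of all genes were called (43.3% higher and 26.2% lower), and the median was 0.06, against 0.12. In KO with high DOX, 40 were higher and 2 lower, while 50% of all genes were called (23% higher and 27% lower), and the median was 0.38, against -0.01. Without those 2 day 1 arrays the KO zero DOX counts were 5 higher and 24 lower. Surf4 is given as an example. It read 10.16 ± 0.04 at day 3 and 10.56 ± 0.08 at day 1 in KO with zero DOX, 11.35 ± 0.02 at day 3 and 10.49 ± 0.05 at day 1 in KO with high DOX, and 10.94 ± 0.09 at day 3 and 10.65 ± 0.07 at day 1 in WT (SD, n = 3 each). Its change in WT depended on the probe set: of the 4 other tested Surf4 sets, 2 rose (0.19, adjusted p = 0.0023, and 0.41, adjusted p = 0.00285) and the others were not called (-0.01, adjusted p = 0.894, and -0.02, adjusted p = 0.796), while all 4 fell in KO zero DOX. Of the 25 members that rose in WT, 5 fell in KO zero DOX (Sec61b, Spcs2, Srp14, Ssr2 and Surf4), 6 rose (Golgb1, Kdelr1, Sec11c, Sec62, Sec63 and Tram1) and 14 were not called. Without the doubted day 1 arrays 4 members fell in KO and rose in WT. The rise of Srp14 in WT (0.20) was called on 1 of its 4 tested sets, the others giving -0.01, 0.07 and 0.06 (adjusted p = 0.863, 0.148 and 0.303). A further 15 fell in both. The share of all genes with each pair of calls was not computed for these joint counts.

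The difference of these changes was tested directly. The change from day 1 to day 3 was called lower in KO zero DOX than in WT for 26 members, while 29.2% of all genes were called (9% higher and 20.2% lower), with a median of -0.24, against -0.07 over all genes. limma called 0 members in the other direction, where 1 had an unadjusted p under 0.05. Sec24d had the largest of these differences among the members, -1.96 ± 0.20 (adjusted p = 1.36e-06), followed by Surf4, -0.69 ± 0.13 (adjusted p = 0.000584). Sec24d was above the table's median intensity on 0 of 3 day 1 arrays in WT and in KO zero DOX. In KO zero DOX at day 3 it was above on 1 of 3, so its size rests on groups near the filter. By class, the 26 held 7 of 9 translocon and TRAP genes, 6 of 9 cargo receptors, 4 of 9 COPI and Arf genes, 3 of 7 of the particle and its receptor, 3 of 5 signal peptidase genes, 2 of 11 COPII genes and 1 of 3 docking genes. A call here does not mean that the genotypes moved apart. Among the 26, the Copa mean was 12.27 in KO zero DOX and 11.95 in WT at day 1, and 12.34 in both at day 3. Arf4 read 12.05 and 11.71 at day 1, and 12.00 and 12.03 at day 3. With high DOX the later change exceeded that with zero DOX for 45 members and was below it for 1, Sec24b, while 26.2% of all genes were called (12.4% higher and 13.8% lower), with a median of 0.53, against 0.00. Without those 2 day 1 arrays the counts were 25 for genotype, and 46 above and 1 below for high DOX. The 2 tests share the KO zero DOX arrays.

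**Figure D5:**
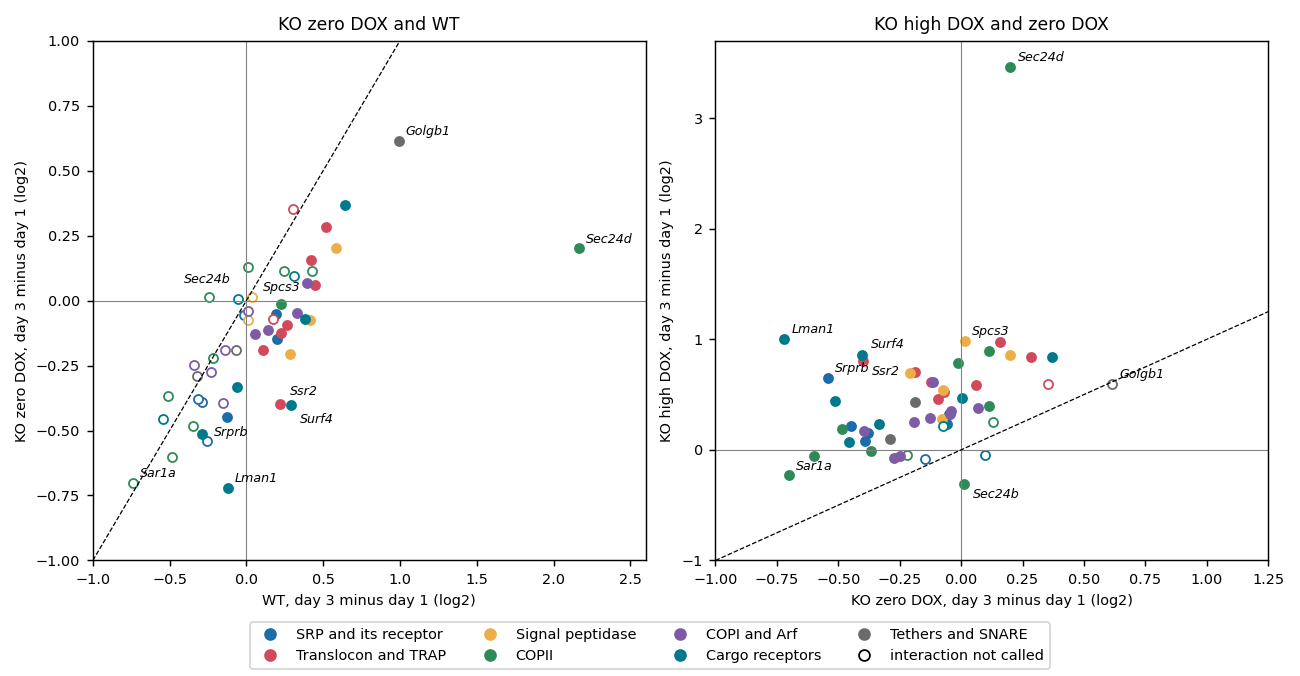
Change from day 1 to day 3 in log2 units for the 53 tested genes, with KO zero DOX (y) against WT (x) at the left and KO high DOX (y) against KO zero DOX (x) at the right, coloured by role, filled where the difference of the 2 changes was called. The dashed line marks equal change, and axes differ in range. Most filled points lie below the line at the left and above it at the right, and Sec24d lies furthest from it in both panels.

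A second reading of the same genes came from their other probe sets. For 32 members there were further tested sets, 56 in all. For KO zero DOX against WT at day 3, 33 of these were called in the direction of the set used above, 0 in the opposite direction, 9 were not called where the set used above was, 2 were called where it was not, and in 12 neither was. For high against zero DOX the counts were 45, 0, 7, 2 and 2. These sets share the arrays and are not replicates.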

How the data were processed

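RNA of 30 samples was measured on Affymetrix mouse arrays, 1 array per sample, with 45101 probe sets. The deposited values are a linear intensity per probe set, made by the authors in D-Chip with a perfect-match-only model, per the series text; MAS5 also appears in the submitters' processing notes, with no role given. Array medians lay between 171.38 and 199.67, so the values were taken as already normalised. Arrays give no read depth, and their number, 3 per group, limits the precision.

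From there, log2(intensity + 16) was computed. Probe sets above the table's median of 188.25 on at least 3 arrays were kept, and a gene was represented by its probe set of highest mean among those annotated to 1 symbol. Of 34945 such sets, 34741 matched a RefSeq gene and 204 kept their older name. limma 3.58.1 in R 4.3.3 (lmFit and eBayes, a mean per group, 30 arrays, 20 residual degrees of freedom) gave 16 comparisons, each with Benjamini-Hochberg adjustment over 12183 genes, and the script was tested on simulated data. Tables were made with Python 3.11.15. The 29 genes given array by array follow a rule: in each class the 2 called genes with the largest difference in KO zero DOX against WT and the 2 in high against zero DOX at day 3, every member called against the majority, and the paralogue sets. The members and gene lists were chosen with earlier results of these data known. Alternatives were other pseudocounts, filters, scalings, probe sets, sample sets, array weights, an intensity trend, a sex term, a replicate block and leaving out each array. Recomputing counts over several days without the arrays that stood apart was chosen after seeing the data.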

Additional observations from a re-analysis of the deposited data

Results flagged for a closer look

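The change from day 1 to day 3 was tested for a difference between conditions. It differed between KO zero DOX and WT cultures for 26 members, while 29.2% of all genes were called, and between KO high DOX and KO zero DOX cultures for 46 members, while 26.2% of all genes were called.

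Among the 26, 5 members had a called fall in KO zero DOX and a called rise in WT. The share of all genes with such opposite calls was not computed. The difference of the changes was -0.69 for Surf4, a cargo receptor, and -0.62 for Ssr2, a TRAP subunit. It was -0.49 for Spcs2, an accessory subunit of signal peptidase, -0.36 for the channel subunit Sec61b and -0.35 for Srp14 of the signal recognition particle. On the other tested sets the called rise in WT was absent for 3 of 3 Srp14 sets and for 2 of 4 Surf4 sets.

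Among the 46, 15 members had a called rise in KO high DOX and a called fall in KO zero DOX. Here too the share of all genes was not computed. Lman1 had the largest difference of the 15, 1.72, followed by Surf4 with 1.26, Ssr2 with 1.20 and Srprb with 1.19. Kdelr2 differed by 0.96, Spcs2 by 0.90 and Sec61a1 by 0.89. For Sec23b, Srpr and Uso1 the differences were 0.67, 0.66 and 0.62. Tmed9, Sec61b and Srp68 differed by 0.57, 0.55 and 0.53, and the COPI genes Copg1 and Arcn1 by 0.45 and 0.42. Both sets of differences use the KO zero DOX arrays of days 1 and 3, where the summed myeloid markers were 9772 to 17759 at day 3 and 6726 to 9084 at day 1, and the part of those markers was not tested.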

How the results depend on the processing

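Of 304 recomputed counts of called members, 288 stayed within 1.5 times the reported count and 16 did not, and of 1013 recomputed single-gene values, 990 kept their direction and call, 17 lost the call, 5 gained it and 1 reversed (Sar1a, KO zero DOX minus WT at day 3, 0.12 with the probe set of second highest mean). The weakest count was the 2 members higher with high than with zero DOX at day 1. It was 1 with no filter, 1 on centred arrays, 1 without the day 1 arrays that contradicted their labels, 0 with only the arrays compared (4 had an unadjusted p under 0.05 in limma) and 0 with the second probe set (2 unadjusted), and leaving out 1 array gave 0 to 1, with 0 without KO day 1 high DOX replicate 1 and without KO day 1 zero DOX replicate 3 (4 unadjusted in each). With array weights, 31 members were called in KO zero DOX against WT at day 1, against 19 as reported, and 41 in KO low DOX against WT at day 3, against 26. With only the arrays compared, the 18 calls in KO against WT at day 0 became 4 and the 33 between high and low DOX at day 3 became 14. Leaving out 1 array gave 20 to 36 for that dose step, 12 to 22 for day 0, 31 to 34 for KO zero DOX against WT at day 3 and 51 to 51 for high against zero DOX. The causes were not tested. The stricter filter dropped Sec24d.

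Replicate numbers were not taken to pair the samples in the main fit, since not every same-numbered pair of arrays correlated over 0.1. Same-numbered pairs include KO with WT arrays, which came from different mice, so that rule could not show whether KO cultures shared mice. The correlation of deviations had a median of 0.187 over 135 same-numbered pairs, with 74 over 0.1, and -0.058 over 270 others, with 24 over 0.1, and 27 of 30 arrays correlated best with their own number. This is a hint from the data, and sex follows the number within the KO groups, so a shared origin was not settled. With the replicate block, 35 members were called in KO zero DOX against WT at day 3 and 51 for high against zero DOX.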

Other observations

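Among 56 further genes of ER to Golgi transport that were not members, 50 were tested. At day 3, 8 were called higher and 16 lower in KO zero DOX than in WT (median -0.03), 48% of the 50, while 34.9% of all genes were called (19% higher and 15.8% lower). With high DOX, 29 were called higher and 7 lower than with zero DOX (median 0.20), while 48.6% of all genes were called (24.4% higher and 24.2% lower). Tram2, a paralogue of the translocon partner Tram1, had the largest difference of the 50 in both comparisons, -1.80 for KO zero DOX minus WT and 2.90 for high minus zero DOX. The SNARE Bet1 differed by -0.69 and 1.27, Yif1b by -0.48 and 0.96, Ergic1 by -0.44 and 1.12 and Yipf5 by -0.41 and 0.84. Arf3, a paralogue of Arf1, was the other way round, at 0.37 and -0.40.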
